A study of Mus musculus with 2 samples.

Results

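The surface of the mouth is protected by proteins that epithelia and glands secrete into saliva and mucus, and 10 mouse genes of this kind were examined in tongue. They were *Ltf*, *Lcn2*, *Lyz1*, *Lyz2*, *Slpi*, *Expi*, *Wfdc2*, *Wfdc12*, *Reg3g* and *Pigr*. The genes were chosen by name, and partly selected on the values described here, since *Lyz2*, *Ltf*, *Expi* and *Wfdc12* were taken for levels that are high or very different between tissues. Each of the 10 had 1 row among the 18498 rows of the expression table, of which 18043 carried a gene symbol. Their levels and ratios are therefore given as a description, with no test.

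The table compares the circumvallate papillae (CvP), the taste papilla at the back of the tongue, with tongue epithelium without papillae (Epi). Both samples came from C57BL/6J mice aged 12 to 30 weeks, and RNA of at least 20 mice was pooled for each. The study states male sex for the mice of its RT-PCR and normal chow for its mice in general. One poly(A) RNA library was sequenced per tissue, so replicates were absent, no p-value was calculated and every difference is between these 2 libraries. Values are RPKM, reads scaled to the exon model length in kilobases and to the depth of the library. For RT-PCR the papilla samples are stated to have included epithelium around the taste buds, and whether this held for the sequenced RNA is not stated. The libraries held an estimated 28375327 (CvP) and 27910121 (Epi) mapped reads, as read from the step between the lowest values. Intervals given with ratios are 95% exact (Clopper-Pearson) intervals from estimated reads and cover counting error only.

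The proteins act in different ways. Lactotransferrin (*Ltf*) and lipocalin 2 (*Lcn2*) deprive bacteria of iron, the first by binding it and the second by binding the siderophores that carry it. Lysozymes (*Lyz1*, *Lyz2*) cut the peptidoglycan of the bacterial wall. *Slpi*, *Expi*, *Wfdc2* and *Wfdc12* code for small secreted proteins with a whey acidic protein (WAP) domain, a fold held together by disulphide bonds, and *Slpi* is an inhibitor of leukocyte elastase. *Reg3g* codes for a secreted lectin that binds Gram-positive bacteria, and *Pigr* for the receptor that carries polymeric immunoglobulins across epithelia. In tongue, minor salivary glands open into the trench of the CvP, and macrophages and neutrophils also make several of these proteins.

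The sequences below show how far the related members are alike. *Lyz1* and *Lyz2* lie side by side on the minus strand of chromosome 10 (NCBI37/mm9, chr10:116724851-116729924 and chr10:116714597-116719328), 5.52 kb apart. Their coding sequences of 447 bases differed at 22 bases in the GENCODE M1 transcripts, so that 95.1% of bases were identical. A read was 75 bases long, and 226 of the 373 windows of that length in the coding sequence (60.6%) differed by more than 2 bases, while 44 windows had no difference. The window with the most differences is shown for both genes (coding bases 58 to 132, counted from the start codon), with the 12 bases that differ in capitals:
Lyz1: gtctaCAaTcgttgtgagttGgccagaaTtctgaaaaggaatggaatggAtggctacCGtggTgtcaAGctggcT
Lyz2: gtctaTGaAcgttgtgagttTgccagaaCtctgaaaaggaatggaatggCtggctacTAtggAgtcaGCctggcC

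The 250 bases upstream of the start sites of the same pair (RefSeq, GRCm38.p6, minus strand, chr10:117292869-117293118 for *Lyz1* and chr10:117282273-117282522 for *Lyz2*) are given because the genes had very different levels in the CvP. Capitals mark bases that differ, or have no partner, in a global alignment. Of 252 aligned columns 79.4% were identical, and the 50 bases next to the start were the same in both.
Lyz1: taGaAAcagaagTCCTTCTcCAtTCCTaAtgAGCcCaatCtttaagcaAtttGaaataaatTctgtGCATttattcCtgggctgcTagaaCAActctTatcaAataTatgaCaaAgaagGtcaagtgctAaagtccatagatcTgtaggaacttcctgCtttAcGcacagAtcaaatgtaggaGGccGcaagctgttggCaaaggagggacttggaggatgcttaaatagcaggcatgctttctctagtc
Lyz2: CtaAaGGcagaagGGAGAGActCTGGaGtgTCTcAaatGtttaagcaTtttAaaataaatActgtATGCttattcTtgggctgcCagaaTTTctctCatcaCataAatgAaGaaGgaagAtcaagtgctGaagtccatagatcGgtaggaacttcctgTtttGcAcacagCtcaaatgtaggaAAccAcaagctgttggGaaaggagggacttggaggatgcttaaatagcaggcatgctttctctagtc

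The WAP members are shown by the coding sequences of the shortest of them, *Expi* (chr11:83522506-83524862, plus strand) and *Wfdc12* (chr2:164014967-164016294, minus strand), which differed between tissues in opposite directions. Capitals mark the codons for cysteine, the residue that forms the disulphide bonds. Each sequence held 8 of them, 10.8% of the codons of *Expi* and 9.41% of those of *Wfdc12*, against a median of 2.14% over 21115 genes. The longer coding sequences of *Slpi* and *Wfdc2* held 17 and 18.
Expi: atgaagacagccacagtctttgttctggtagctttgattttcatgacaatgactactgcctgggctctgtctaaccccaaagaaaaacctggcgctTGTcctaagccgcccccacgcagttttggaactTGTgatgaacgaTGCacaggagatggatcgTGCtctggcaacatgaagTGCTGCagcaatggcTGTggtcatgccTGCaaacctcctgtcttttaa
Wfdc12: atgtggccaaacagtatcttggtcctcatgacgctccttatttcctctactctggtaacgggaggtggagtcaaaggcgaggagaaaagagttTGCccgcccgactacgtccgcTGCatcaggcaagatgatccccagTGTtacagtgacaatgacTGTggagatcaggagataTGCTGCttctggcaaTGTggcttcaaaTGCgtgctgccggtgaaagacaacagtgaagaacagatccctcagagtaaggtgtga

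In both libraries the most abundant of the 10 genes was *Slpi*, but the genes that followed it differed. In the CvP the order by RPKM was *Slpi*, *Ltf*, *Expi*, *Wfdc2*, *Lyz2*, *Wfdc12*, *Pigr*, *Lcn2*, *Lyz1* and *Reg3g*. In the Epi it was *Slpi*, *Wfdc12*, *Ltf*, *Wfdc2*, *Expi*, *Pigr*, *Lyz2* and *Lcn2*, with *Lyz1* and *Reg3g* listed at 0. The levels of *Pigr* and *Lyz2* in the Epi could not be told apart, with a ratio between them of 1.26 (95% interval 0.712 to 2.34). For *Ltf* and *Wfdc2* in the Epi the ratio was 1.08, and its interval held 1 with reads from the shorter of the listed and annotated lengths (0.985 to 1.18) but not with reads from the listed length (1.03 to 1.13), so that their order rests on the length used. The other neighbours with more than 3 estimated reads differed by more than their counting error.

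**Figure D1:**
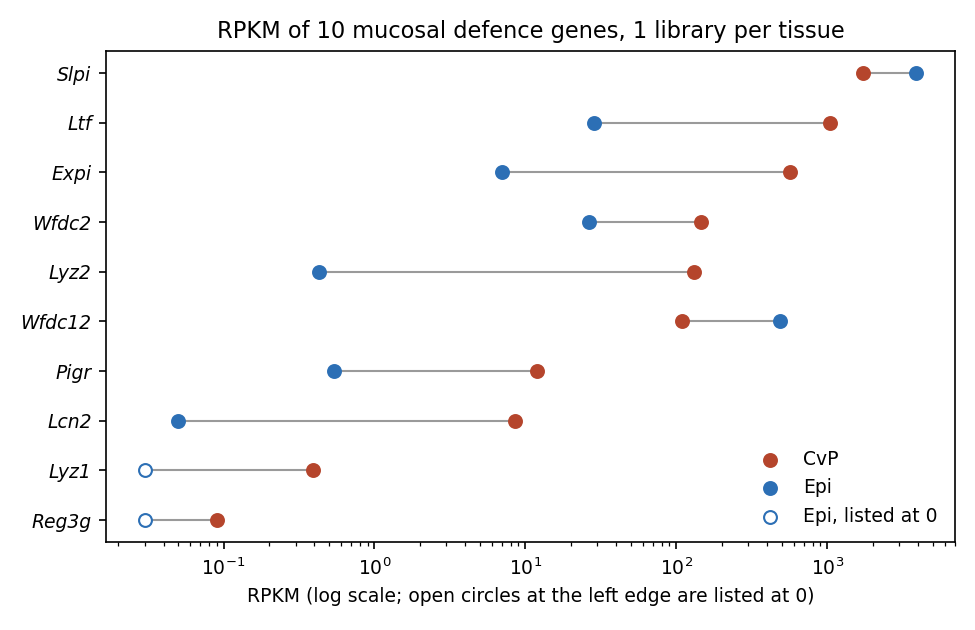
RPKM of the 10 genes on a log axis, with 1 point for the CvP library and 1 for the Epi library per gene and a line joining them. Open circles at the left edge are values listed at 0. The CvP point lies to the right of the Epi point for 8 genes and to the left for *Slpi* and *Wfdc12*.

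Summed over the 10 genes, RPKM was 3757 in CvP against 4442 in Epi, or 1.10% and 1.08% of the summed RPKM of each library. The sums were thus alike while their composition was not. *Slpi* made up 46.2% of the sum in CvP against 87.5% in Epi, and *Ltf* 27.9% and 0.641%. *Expi* made up 15.1% of the sum in CvP against 0.159% in Epi. Without *Slpi* the sums were 2022 in CvP against 553 in Epi, a ratio of 3.66.

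Of the 10 genes, 8 had a higher RPKM in CvP against 2 in Epi. The 8 include *Lyz1* and *Reg3g*, which rested on about 14 and 2 reads in the CvP and were listed at 0 in the Epi. The rows of the table also leaned to the CvP, by the median log2 ratio given below, and the share of rows higher there was not counted. An RPKM of 1 or more in at least 1 library was reached by 8 genes, and *Lcn2*, *Lyz2* and *Pigr* reached it in the CvP alone. Among these 8, 6 were more than 3-fold higher in the CvP (*Ltf*, *Lcn2*, *Lyz2*, *Expi*, *Wfdc2* and *Pigr*), and 15.9% of the 12549 rows with such an RPKM were. In the other direction 1 gene, *Wfdc12*, was more than 3-fold higher in the Epi, against 1.96% of rows. An RPKM above 10 in the CvP with a CvP/Epi ratio above 3, limits taken from the study and applied here to the deposited RPKM, were met by 5 of the 10 genes and by 2.35% of all rows. The same limits turned towards the Epi were met by *Wfdc12* and by 0.600% of all rows. Because the genes were picked with these values in view, nothing is read from these shares. The median log2 ratio of the 8 genes was 4.72, with a pseudocount of 0.1, and ran from -2.16 to 7.96. Over all rows with such an RPKM it was 0.50.

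**Figure D2:**
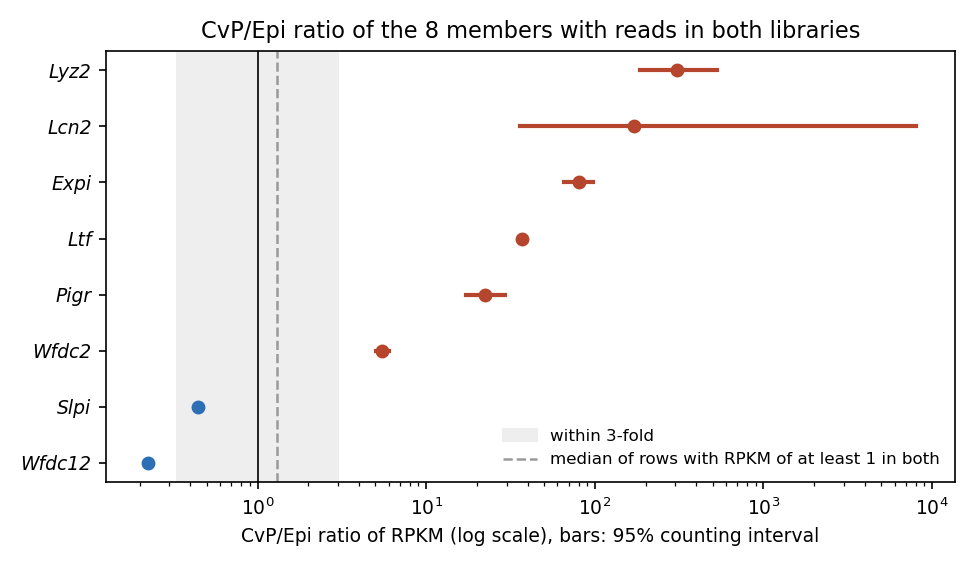
CvP/Epi ratio of RPKM on a log axis for the 8 genes with estimated reads in both libraries. Points are ratios and bars are 95% counting intervals, the grey band is the range within 3-fold, and the dashed line is the median ratio, 1.31, of rows with an RPKM of at least 1 in both libraries. *Lcn2* has by far the widest bar, from 36.0 to 8042, because 1 read lay behind its Epi value.

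Both iron-binding proteins were higher in the CvP. *Ltf* (chr9:110921796-110945270, plus strand, 17 exons in GENCODE M1) had an RPKM of 1048 in CvP against 28.5 in Epi, 36.8-fold higher in the CvP (95% interval 35.3 to 38.4). The gene was number 28 among all rows in the CvP and number 1703 in the Epi. Relative to *Slpi*, *Ltf* was at 60.4% in the CvP and at 0.732% in the Epi. *Lcn2* (chr2:32240157-32243259, minus strand) was much less abundant than *Ltf*, with an RPKM of 8.51 in CvP against 0.05 in Epi. These values stood for about 206 reads and 1 read, the latter under the floor of 3 reads used here. The CvP/Epi ratio, 170 (95% interval 36.0 to 8042), is therefore read only as a lower bound, the 36.0 of the interval.

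The 2 lysozyme genes were far apart in level. *Lyz2* had an RPKM of 132 in CvP against 0.43 in Epi, about 4904 and 16 reads, and its rank among all rows was 316 and 11864. The ratio was 306 (95% interval 185 to 528), the largest among members with more than 3 reads in both libraries. *Lyz1*, its neighbour, had an RPKM of 0.39 in the CvP, about 14 reads, and was listed at 0 in the Epi, where a count of 0 allows up to 3 reads (an RPKM of 0.0850). In the CvP *Lyz2* was thus 338-fold higher than *Lyz1*, 2 genes with the same bases just upstream of the start in the sequences above. Of the 75-base windows of the whole *Lyz1* transcript 6.22% were found unchanged in *Lyz2*, and whether any of the 14 reads came from *Lyz2* was not tested. The lysozyme that stood out in the Epi was a more distant one. *Lyg1*, a g-type lysozyme and no member of the 10, had an RPKM of 1167 in Epi against 16.9 in CvP, 69.2-fold higher in the Epi (62.6 to 76.7).

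The 4 WAP genes did not move together. *Expi* had an RPKM of 566 in CvP against 7.05 in Epi, a ratio of 80.3 (95% interval 65.8 to 98.1), and ranked number 59 and 5442. *Wfdc2* (chr2:164388216-164394006, plus strand) was at 145 and 26.4, a ratio of 5.50 (5.06 to 6.01). *Slpi* (chr2:164179806-164182243, minus strand) had an RPKM of 1735 in CvP against 3889 in Epi, where it was number 7 of all rows, and was 2.24-fold higher in the Epi (2.22 to 2.27). *Wfdc12* was at 110 in CvP against 490 in Epi, 4.46-fold higher in the Epi (4.27 to 4.66). The highest and the lowest of these ratios belonged to the pair of genes whose coding sequences are shown above, with 8 cysteine codons each. In GENCODE M1 125 exon bases of *Wfdc12* are shared with the antisense non-coding gene *A730032A03Rik*, which had no row. Neither the kit nor the counting is stated to use strand, so reads of the 2 genes cannot be told apart there.

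The members *Slpi*, *Wfdc2* and *Wfdc12* lie in the WAP gene cluster of chromosome 2, and the direction of the difference changed along it. From *Wfdc5* to *Wfdc3* (chr2:164002061-164568767, 567 kb) the table had 15 rows, of which 9 were WAP genes. At the one end *Wfdc5* (RPKM 61.6 in CvP against 119 in Epi), *Wfdc12* and *Slpi* were all higher in the Epi, and between them *Wfdc15a* (0.15 and 0.23) and *Wfdc15b* (0.25 and 0.44) were barely detected. *Wfdc2* followed 206 kb beyond *Slpi* and was higher in the CvP. Past *Wfdc2*, *Spinlw1* (0 and 0.05), *Wfdc8* (0.04 and 0) and *Wfdc3* (0.51 and 0.09) were low in both tissues. The 6 other rows, which are not WAP genes, lie between *Slpi* and *Wfdc2*. Of these, 4 had an RPKM of 1 or more in at least 1 library and ratios from 1.26 to 2.29, so that none passed 3-fold. *Expi* lies apart, on chromosome 11, near the WAP genes *Gm11428* (0.75 and 0.07) and *1100001G20Rik* (0.24 and 0), which were named after their values were seen.

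**Figure D3:**
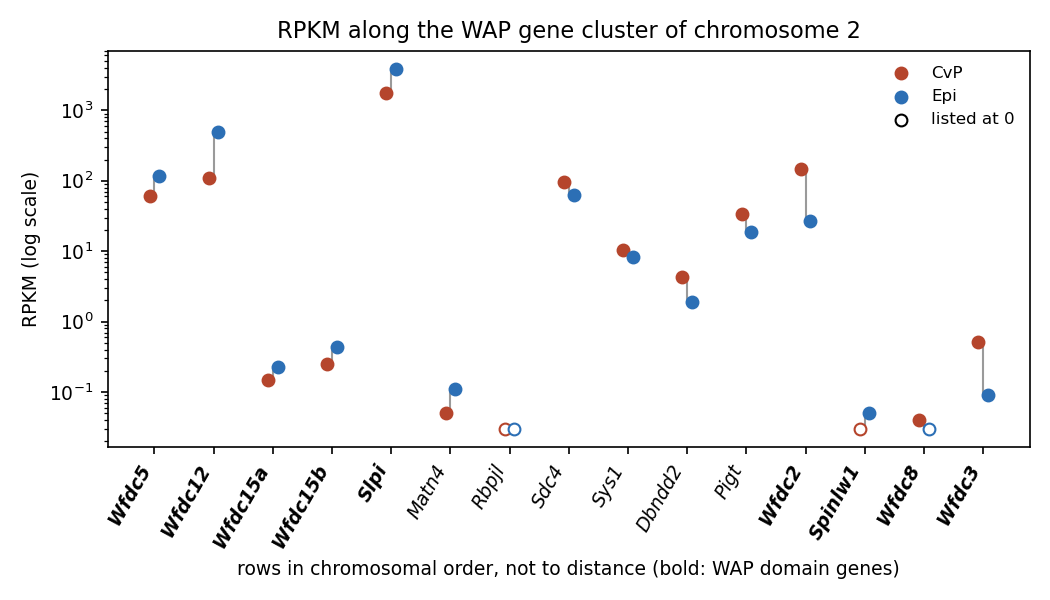
RPKM on a log axis in the CvP and the Epi for the 15 rows of the WAP cluster of chromosome 2, in chromosomal order but not to distance, with WAP genes in bold and values listed at 0 as open circles at the bottom. The Epi point is the higher one from *Wfdc5* to *Slpi*, and the CvP point is the higher one at *Wfdc2*.

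The lectin *Reg3g* (chr6:78416262-78418868, minus strand) was at or below the floor of 3 reads in both libraries, with an RPKM of 0.09, about 2 reads, in CvP against 0 in Epi. No fold was calculated for it, and a difference was not detectable at this depth. Of 6 further *Reg* genes looked for, 0 had a row. *Pigr* (chr1:132723261-132748826, plus strand, 11 exons), the immunoglobulin transporter, had an RPKM of 12.0 in CvP against 0.54 in Epi, about 1312 and 58 reads, a ratio of 22.2 (17.1 to 29.5). Markers of the cells that make its cargo were low where they had a row. Of 9 marker genes of plasma and B cells 6 had a row, and their summed RPKM was 1.18 in CvP against 0.21 in Epi. The highest was *Cd79b*, a part of the B cell receptor, at 0.80 in CvP against 0 in Epi. *Mzb1*, a plasma cell gene listed as *2010001M09Rik*, was at 0.12 and 0. *Jchain*, *Tnfrsf17* and *Ms4a1* had no row, so the transcript of the joining chain of IgA was not analysed here.

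Other genes of mucosal defence, not all of them for secreted proteins, and family relatives also differed in both directions. A list of 82 such genes was compiled from 7 families or functions, of which 50 had a row and 20 an RPKM of 1 or more in at least 1 library. More than 3-fold higher in the CvP were 6 of the 20 (30.0%, against 15.9% of all rows), and more than 3-fold higher in the Epi were 4 (20.0%, against 1.96%). Their median log2 ratio was 0.48, near the 0.50 of all rows. The 10 others lay within 3-fold. Because the list was compiled with earlier results of these data known, nothing is read from these shares.

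Of the relatives higher in the CvP, *Dmbt1*, a mucosal scavenger receptor that binds bacteria, was the most abundant, at 82.3 in CvP against 8.33 in Epi (ratio 9.88, 95% interval 9.36 to 10.4). *Pglyrp1*, a secreted protein that binds peptidoglycan, was at 34.8 and 1.47 (23.7, 16.2 to 35.9). The oxidase gene *Duox2* (3.54 and 0.17) and its maturation factor *Duoxa2* (5.10 and 0.09) were 20.8-fold and 56.7-fold higher, while their neighbours *Duox1* (34.5 and 23.8) and *Duoxa1* (32.2 and 29.0) lay within 3-fold. *Chi3l1*, a chitin-binding lectin, was at 18.9 and 3.23, a ratio of 5.87. *Trf*, which codes for serum transferrin and is a relative of *Ltf*, was at 1.24 and 0.29, a ratio of 4.28 (2.55 to 7.41). The highest relative in the Epi beside *Lyg1* was *U46068* (*Bpifb1*), a secreted protein of the family of bactericidal permeability-increasing protein, at 185 in Epi against 1.21 in CvP. *Psp* (*Bpifa2*), the parotid secretory protein of the same family, was at 27.1 in Epi against 0.07 in CvP, and the chitinase *Chia* at 2.05 and 0.09. *Pglyrp3* (16.3 in CvP against 23.9 in Epi), *Pglyrp4* (13.0 and 8.28), *Rnase4* (22.9 and 31.3) and *Wfdc5* lay within 3-fold.

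**Figure D4:**
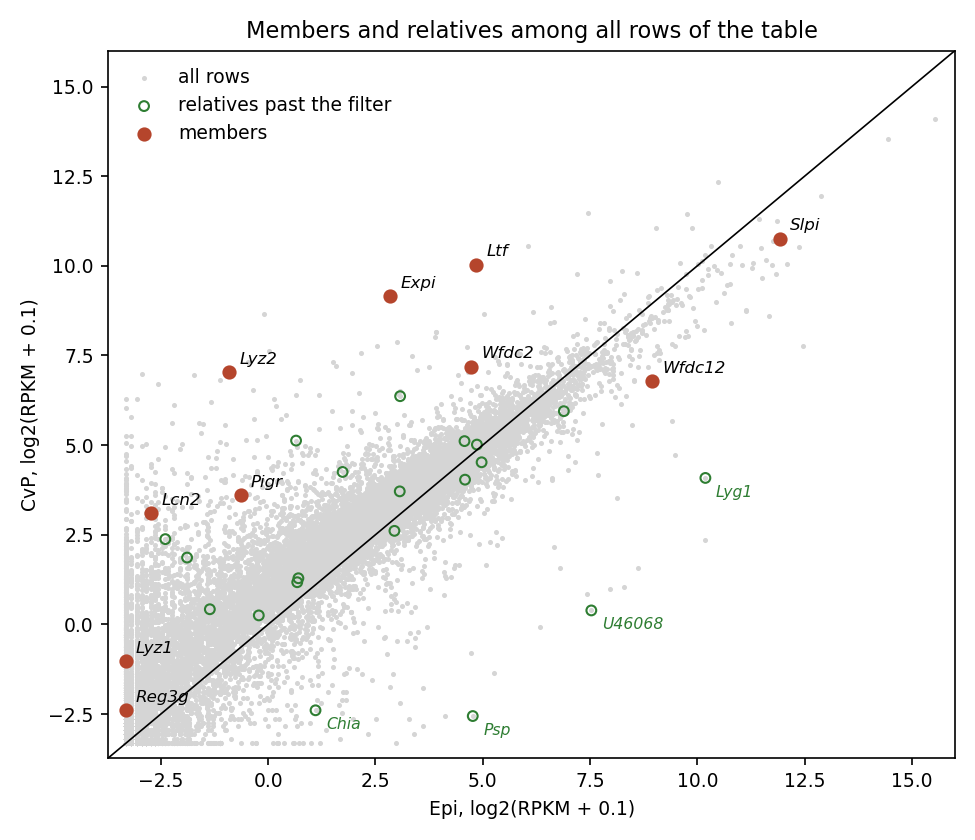
CvP against Epi expression as log2(RPKM + 0.1) for all 18498 rows (grey), the 20 relatives past the filter (green circles) and the 10 genes described (red), with the line of equal values. *Lyz2*, *Expi* and *Ltf* lie far above the line, *Slpi* and *Wfdc12* below it, and *Lyg1*, *U46068*, *Psp* and *Chia* are the labelled relatives below it.

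Rows with values most like those of each gene were found by distance in log2(RPKM + 0.1) over the 2 libraries. The 3 nearest to *Lyz2* were *Krt8* and *Krt18*, which code for keratins of simple epithelia, and *Lrmp*, at distances from 0.30 to 0.75. *Expi* was nearest to *Krt75* (614 in CvP against 6.82 in Epi, distance 0.13), then to *Plac8* and *Mal* at 1.29 and 1.42. *Ltf* had no close match, the nearest being *Psca* at 1.38, followed by *Glul* and *Sprr2a1*. *Slpi* was nearest to *Asprv1*, *Rptn* and *Krtdap*, genes of keratinizing epithelium, at distances from 0.18 to 0.51, and *Wfdc12* to *Dsc1*, a desmosomal cadherin (0.07), *Mt2* and *Fmo2*. *Wfdc2* was nearest to *Capns1*, *Anxa4* and *Ifitm3*, *Pigr* to *Frmd4a*, *Runx1* and *Dpysl3*, and *Lcn2* to *Tas2r126*, *Spib* and *Tnfrsf11b*. *Lyz1* and *Reg3g* had the same pair of values as 13 and 27 other rows and were given no neighbours. Nearness in 2 values says nothing of shared function.

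Markers of several cell types also differed between the libraries, in both directions, and in bulk tissue fewer cells of a type and less RNA per cell cannot be told apart. All 10 taste cell markers had a row and were more than 3-fold higher in the CvP, with a summed RPKM of 411 there and 5.82 in the Epi, where *Kcnq1*, *Pkd2l1* and *Snap25* were at 0. *Gnat3*, *Plcb2* and *Entpd2* were the highest, at 127, 70.0 and 54.8 in the CvP. Of 10 markers of keratinized epithelium 5 were more than 3-fold higher in the Epi, and the list summed to 35279 in CvP against 90988 in Epi, led in the Epi by *Krt13*, *Krt4* and *Krt76*. In the CvP *Krt13* and *Krt4* were also the highest, while *Krt76* was at 217. Keratinocyte transcripts were thus abundant in both libraries. Skeletal muscle markers summed to 7.01 in CvP against 62.2 in Epi, with *Acta1*, *Tnni2* and *Ckm* at 12.9, 12.3 and 10.6 in the Epi.

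Lysozyme and the iron-binding proteins are also products of phagocytes. All 12 macrophage and monocyte markers had a row, and their summed RPKM was 59.0 in CvP against 8.61 in Epi. Of 8 past the filter 7 were more than 3-fold higher in the CvP. The highest were *Cd14* (20.4 in CvP against 0.94 in Epi), *Cd68* (10.8 and 4.45) and *C1qb* (6.08 and 0.57), and *Fcgr1* was at 0 in the Epi. Of 10 neutrophil markers other than *Ltf* and *Lcn2* 8 had a row, with a sum of 58.0 in CvP against 5.46 in Epi. *S100a9* (31.4 and 3.45) and *S100a8* (22.1 and 1.37), which epithelial cells also express, made up most of it, and *Csf3r* was at 2.20 and 0.01. The granule genes *Elane*, *Camp*, *Ngp* and *Mmp8* were at or near 0, with CvP values of 0, 0.12, 0.03 and 0.06. *Mpo* and *Ly6g* had no row and were not analysed here. The part of neutrophils in the levels of *Ltf* and *Lcn2* was not tested.

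Glands are another source of these proteins. Of 16 salivary gland markers other than *Expi* 13 had a row, with a sum of 86.6 in CvP against 459 in Epi. In the Epi the highest were *Lipf*, the gene of lingual lipase (313, and 1.96 in the CvP), and *Amy1*, the gene of salivary amylase (80.5 and 0.85), and 6 of 9 past the filter were more than 3-fold higher there. Of these 6, *Psp* is also counted among the relatives higher in the Epi above, so the lists overlap. *Slc12a2* (45.2 in CvP against 6.47 in Epi), *Cldn10* (31.4 and 5.62) and *Aqp5* (6.09 and 0.69), genes of fluid secretion, were higher in the CvP, and *Dcpp1*, *Car6* and *Smgc* (listed for *Muc19*) were at 0 there. Markers of simple epithelium and ducts, some of which taste cells share, summed to 1214 in CvP against 378 in Epi, with 7 of 10 more than 3-fold higher in the CvP. *Krt23* (298 and 265), *Krt19* (198 and 0.91) and *Krt18* (161 and 0.62) were the highest. The part of these cells in the levels of *Lyz2*, *Ltf*, *Lcn2*, *Expi*, *Wfdc2* and *Pigr* was not tested.

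**Figure D5:**
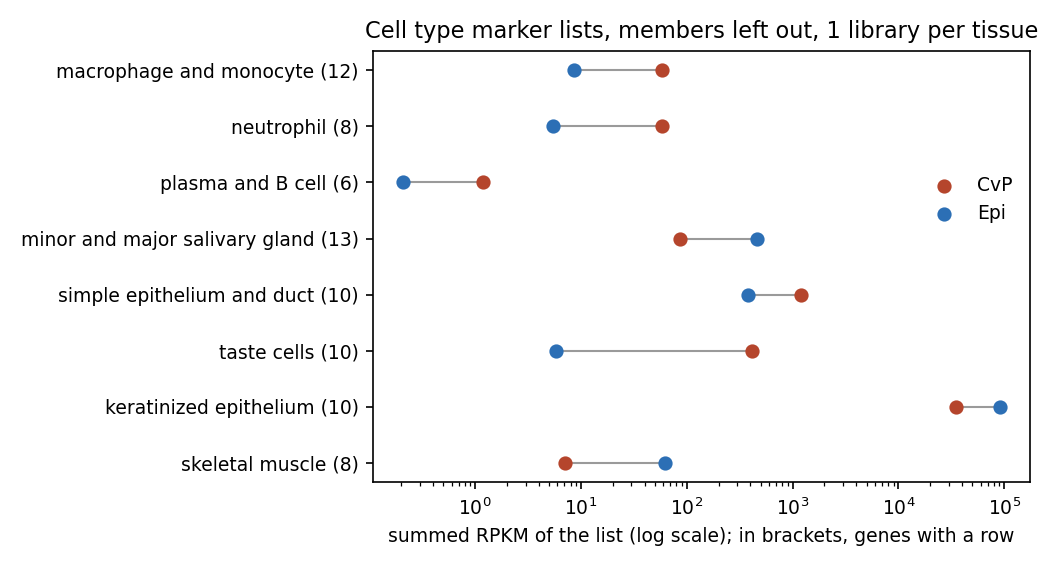
Summed RPKM of 8 marker lists on a log axis in the CvP and the Epi, without the 10 genes described, with the number of genes that had a row in brackets. The sums are higher in the CvP for macrophage, neutrophil, plasma and B cell, simple epithelium and taste cell lists, and higher in the Epi for salivary gland, keratinized epithelium and skeletal muscle lists.

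The levels of the 10 genes depend on the length by which reads were divided. The listed length was near that of the annotated transcript for *Lyz1*, *Reg3g*, *Lyz2*, *Lcn2* and *Pigr*, but 5.15 times it for *Wfdc2*, 3.03 times for *Slpi*, 2.44 times for *Expi*, 2.14 times for *Ltf* and 1.81 times for *Wfdc12*. For *Slpi* and *Wfdc12* it was longer than the whole gene on the genome, introns included (2.655 kb against 2.438 kb, and 1.401 kb against 1.328 kb). Long listed lengths were common among abundant rows of the whole table. The median of listed over annotated length was 1 below a CvP RPKM of 1 and 2.32 at 100 or more. In short rows with few reads whose listed length was more than 1.3 times the annotated one, 86.4% of 22 CvP values gave whole reads with the listed length, and 19.8% of 96 did so with the annotated length. A value counted as whole within its rounding plus 0.02 reads, and random values would pass at 30.5% and 22.8%. Taken per annotated transcript, assuming that all reads came from it, *Slpi* would be at 5259 in CvP against 11787 in Epi, *Ltf* at 2245 and 61.0, *Expi* at 1383 and 17.2, *Wfdc2* at 749 and 136 and *Wfdc12* at 199 and 886. In that order *Wfdc12* would stand above *Lyz2* in the CvP and *Wfdc2* above *Ltf* in the Epi, with the other places the same. As a divisor the length cancels from the CvP/Epi ratios, since it was the same for both libraries. Whether reads from outside the annotated transcript were counted and changed the ratios was not tested.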

How the data were processed

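The authors mapped single-end reads of 75 bases with Bowtie 0.12.7 to the NCBI37/mm9 genome, and ERANGE gave RPKM. The deposited table gives, in 1 row per gene or region, an RPKM for each tissue, a gene length and the authors' own CvP/Epi ratio, which was not used. The ERANGE options and the treatment of reads with several matches are not given in the sources used here, and the table shows no read counts.

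Ratios are quotients of deposited RPKM, without a pseudocount. Log2 ratios use RPKM plus a pseudocount of 0.1, so changes of low genes come out too small, and counts of genes past 3-fold rest on rows with an RPKM of 1 or more in at least 1 library. Mapped reads were estimated from the RPKM worth of 1 read in rows of 0.1 kb, and reads per gene with the listed length or that of the longest GENCODE M1 coding transcript, whichever was less. Exact binomial intervals and the floor of 3 reads cover counting error only. Depth and intervals were tested on simulated data. Listed genes were matched by Entrez identifier through RefSeq names and synonyms (GRCm38.p6).

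Named were all members, relatives with an RPKM of at least 10 or past 3-fold, the 3 nearest rows of each member, the 3 highest genes of each of 8 marker lists and WAP, lysozyme or *Reg* rows near members. The values of 1 marker gene that this rule names are not reported here. Members and lists were chosen with earlier results of these data known. Versions were Python 3.11.15, scipy 1.17.1, pandas 2.3.3, numpy 2.4.6 and, for figures, matplotlib 3.10.9.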

Additional observations from a re-analysis of the deposited data

How the results depend on the processing

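No paired analysis was possible because a single pool of mice was sequenced per tissue, with nothing to pair. The ratios of the 8 members with reads in both libraries kept their direction in all 40 recalculations, with 5 alternatives of pseudocount or scaling. This outcome was fixed in advance and is no check of the direction. A pseudocount added to both libraries cannot reverse a ratio, and the scaling factors of 1.31, 1.32 and 0.829 were too small to do so. With a pseudocount of 1 RPKM the ratio was 92.8 for *Lyz2*, 9.06 for *Lcn2* and 8.45 for *Pigr*. Divided by the median ratio of 1.31 (log2 0.39), *Ltf* was at 28.0, *Expi* at 61.2, *Wfdc2* at 4.19, *Slpi* at 0.340 and *Wfdc12* at 0.171, and the rows past 3-fold towards CvP and towards Epi were 12.4% and 3.04%. The members more than 3-fold higher in the Epi, 1 at a limit of 3, were 2 at a limit of 2 and 0 at a limit of 5. The median log2 ratio of the members was 3.13 with a pseudocount of 1 RPKM and 3.35 with no filter on low RPKM, which brings in *Lyz1* and *Reg3g*. With no filter 25 relatives passed 3-fold towards the CvP and 11 towards the Epi, many of them on a few reads. Reads taken from the listed length moved none of the 16 interval limits by more than 1.5 times. Levels per annotated length, an alternative chosen after seeing the data, are given above. With 1 library per tissue, no difference has a replicate check.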

Other observations

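Annotation terms that the deposited table gives for each row were used to look beyond the named genes, a choice made after the data were seen. The term extracellular region was carried by 9 of the 10 members, all but *Ltf*, and by 6.12% of rows with a gene symbol. Without the members, 539 rows with this term had an RPKM of 1 or more in at least 1 library, of which 32.5% passed 3-fold towards the CvP and 7.42% towards the Epi, against 15.9% and 1.96% of all rows. With the term defense response to bacterium, 28 of 51 rows reached such an RPKM. Past 3-fold were 12 towards the CvP and 3 towards the Epi, and the median log2 ratio was 1.04. The 3 past 3-fold towards the Epi were the beta-defensins *Defb3* (4.60 in CvP against 29.9 in Epi), *Defb6* (3.27 and 17.2) and *Defb8* (0.86 and 3.38). The other genes with a *Defb* symbol among the 28 rows lay within 3-fold. *Defb4* (991 and 2469), the most abundant, and *Defb1* (27.0 and 45.7) were higher in the Epi, and *Defb14* (108 and 54.4) in the CvP. Those past 3-fold towards the CvP included *Tnf* (2.70 and 0.05), *Il10* (1.86 and 0.06), *Tlr2* (3.21 and 0.38) and *Pglyrp1*. These genes were named after their values were seen. Rows with the term peptidase inhibitor activity include *Slpi*, *Expi*, *Wfdc2* and *Wfdc12*. Without these members, 35 of 73 rows reached such an RPKM, of which 8 were more than 3-fold higher in the Epi (22.9%) and 5 in the CvP (14.3%). Their median log2 ratio was -0.13. The terms share rows, and no difference between them was tested.

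Among abundant genes the balance between tissues was more even than in the table as a whole. An RPKM of 100 or more in at least 1 library was reached by 551 rows. Of these 52 (9.44%) passed 3-fold towards the CvP and 50 (9.07%) towards the Epi, and the median log2 ratio was -0.36. *Ltf*, *Expi*, *Wfdc2*, *Lyz2*, *Slpi* and *Wfdc12* belong to these rows.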
